A study of Mus musculus with 10 samples.

Results

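Protocadherins were examined in L4 and L5 dorsal root ganglia (DRG), the ganglia that hold the cell bodies of sciatic sensory neurons, 24 h after the left sciatic nerve of C57BL/6 mice was cut (axotomy) or exposed without transection (sham). The members were all genes with a protein-coding transcript whose symbol starts with Pcdh followed by a, b, g or a digit. This rule gave 69 of 54309 genes in the annotation, of which 21669 have a protein-coding transcript. They comprise 14 genes of the alpha cluster, 22 of the beta cluster, 21 of the gamma cluster and 12 nonclustered genes, and 1 gamma symbol, Pcdhgb8, was left out because it is annotated as a polymorphic pseudogene. Of the 10 RNA-seq libraries, 2 per sex came from sham and 3 per sex from axotomy mice. The mice were 6 to 8 weeks old, and each library held pooled RNA of 2 mice, so that a sham group stands for 4 mice and an axotomy group for 6. A whole ganglion holds satellite glia, Schwann cells, fibroblasts, vessels and macrophages beside neurons, and in such tissue fewer cells of a type and less RNA per cell cannot be told apart.

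Protocadherins are the largest group of the cadherin superfamily of calcium-dependent adhesion proteins. In the clustered genes, each of many variable first exons has its own promoter and codes for a whole extracellular, transmembrane and proximal cytoplasmic part. In the alpha and gamma clusters this exon is spliced to a few constant exons that all genes of the cluster share, whereas each beta gene is a single exon of its own. Most variable exons are chosen stochastically, so that each neuron shows its own combination on the surface and recognizes its own branches, while the C-type exons at the end of the alpha and gamma clusters (Pcdhac1, Pcdhac2, Pcdhgc3, Pcdhgc4 and Pcdhgc5) are used more uniformly. The nonclustered genes include the delta1 group (Pcdh1, Pcdh7, Pcdh9, Pcdh11x) and the delta2 group (Pcdh8, Pcdh10, Pcdh17, Pcdh18, Pcdh19), which mediate homophilic adhesion and act in axon growth, sorting and synapse formation.

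Levels are given in CPM (a count scaled to library size) after normalization for library composition and transcript length, and in TPM, which also divides by transcript length, where genes are compared with each other. A change is a log2FC of axotomy over sham with its standard error, and a DEG has a Benjamini-Hochberg adjusted p (padj) under 0.1 in edgeR's quasi-likelihood test over 20836 genes. The libraries held 55258476 to 90111671 estimated counts, of which the protocadherins took 0.115% to 0.125% in sham and 0.0803% to 0.1% after axotomy. Sensory neuron markers (11 genes, among them Tubb3, Prph and Scn10a) were present in every library, with a summed level of 11510 to 13160 CPM in sham and 8677 to 11200 CPM after axotomy. Of the 11, 8 fell over both sexes, beside 22.6% of all tested genes. Macrophage markers (9 genes) summed to 54.3 to 80.8 CPM in sham and 83.3 to 194.8 CPM after axotomy. Fibroblast and meningeal markers (11 genes) stood at 1000 to 1061 CPM in female sham, 946 to 1058 CPM in female axotomy and 809 to 841 CPM in male sham, against 1773, 1147 and 2355 CPM in male axotomy 1, 2 and 3. No defining marker of these lists was at 0, and their part in the changes below was not tested.

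In sham ganglia a few protocadherins stood well above the others. Pcdh1 at 54.7 ± 6.05 TPM (SD, n = 4) and Pcdhac2 at 53.2 ± 2.55 TPM had the highest mean levels in sham and did not differ beyond their spread. Pcdh9 followed at 32.8 ± 1.32 TPM, then Pcdh7 at 25.2 ± 1.88, Pcdhac1 at 24.5 ± 0.554 and Pcdhgc3 at 23.1 ± 2.12 TPM, and the last 3 overlapped in their spread. Pcdh10 stood at 19.2 ± 1.74 TPM and Pcdhgc4 at 16.96 ± 1.19 TPM, and every other member was under 10 TPM. In the beta cluster the most abundant genes were Pcdhb9 (6.77 ± 0.45 TPM), Pcdhb17 (4.78 ± 0.17 TPM) and Pcdhb22 (4.39 ± 0.187 TPM). Of the 8 genes above 10 TPM, 4 were C-type and the other 4 were delta genes, with Pcdhgc4 above 10 TPM only through a short transcript, Pcdhgc4-203 (13.9 TPM, 81.8% of the gene's TPM), that is mostly sequence shared with other gamma genes. Pcdhb1 had 3 counts over all 10 libraries and was not tested, which left 68 members.

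After axotomy the alpha cluster and the nonclustered genes had lower summed levels in both sexes, the gamma cluster less so, and the beta cluster stayed close to sham on the CPM scale. The summed nonclustered level was 473 ± 34.5 CPM in female sham (n = 2) and 341 ± 34.0 CPM in female axotomy (n = 3), and 516 ± 5.78 and 309 ± 42.1 CPM in males. The ratio of axotomy to sham means was thus 0.72 in females and 0.6 in males. The alpha cluster went from 353 ± 12.8 to 270 ± 12.4 CPM in females and from 366 ± 3.35 to 232 ± 35.0 CPM in males. In both of these groups every axotomy library lay below every sham library, with the 2 lowest values in male axotomy 1 and 3. The gamma cluster went from 239 ± 13.3 to 220 ± 7.36 CPM in females and from 264 ± 2.87 to 216 ± 19.2 CPM in males, and the beta cluster from 107 ± 1.06 to 105 ± 3.44 CPM and from 109 ± 2.41 to 103 ± 3.23 CPM. On the TPM scale, which is a share of all transcripts in a library, the beta ratio was lower, 0.907 in females and 0.833 in males, against 0.981 and 0.953 in CPM. In TPM the beta sums of sham (52.57 to 54.94) and axotomy libraries (41.68 to 51.97) did not overlap, while in CPM they did. These sums are descriptions and carry no test. Male axotomy 1 and 3 were also the libraries with the lowest sensory neuron marker sums, 9822 and 8677 CPM.

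**Figure D1:**
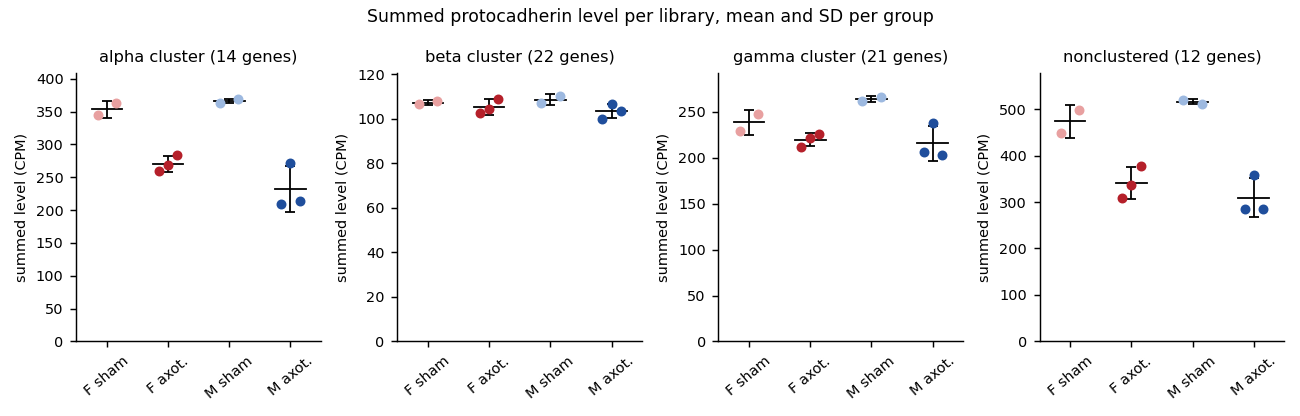
Summed level in CPM (vertical axis, from 0) of the alpha, beta, gamma and nonclustered protocadherins in each library, by group; F and M are female and male, points are libraries, and lines and bars are the mean and SD (n = 2 for sham, n = 3 for axotomy). All 6 axotomy libraries lie under all 4 sham libraries for alpha (209.6 to 284 against 344 to 369 CPM) and nonclustered genes (285 to 377 against 449 to 520 CPM), while the beta sums overlap.

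Gene by gene, 11 members fell and 2 rose in females, where 9.74% of all tested genes fell and 10.4% rose. In males 27 fell and none rose by edgeR's test, where 20.1% of all tested genes fell and 21.8% rose. At an unadjusted p under 0.05 were 28 members in males and 32 over both sexes, against 43.8% and 47.2% of all tested genes, and no member with a positive log2FC in males had an unadjusted p under 0.05. Over both sexes together 29 fell and 2 rose, against 22.6% and 23.9% of all tested genes. The 11 in females were 3 without female sham 2 and 7 without female axotomy 1 or 2, the 2 risers were 0 without female sham 1 or 2, and the 27 in males were 17 without male sham 2. The median log2FC of the 68 members was −0.15 in females and −0.31 in males, beside 0 and 0.03 over all genes tested. The 11 members that fell in females all fell in males as well: Pcdhac1, Pcdhac2, Pcdha12, Pcdhgc3, Pcdh7, Pcdh9, Pcdh11x, Pcdh10, Pcdh17, Pcdh18 and Pcdh19. For 14 members every axotomy library was below every sham library, against 14.8% of all tested genes (28.3% in either direction), and none was above. These 14 were 7 delta genes, 5 alpha genes, Pcdhb18 and Pcdhgc3.

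**Figure D2:**
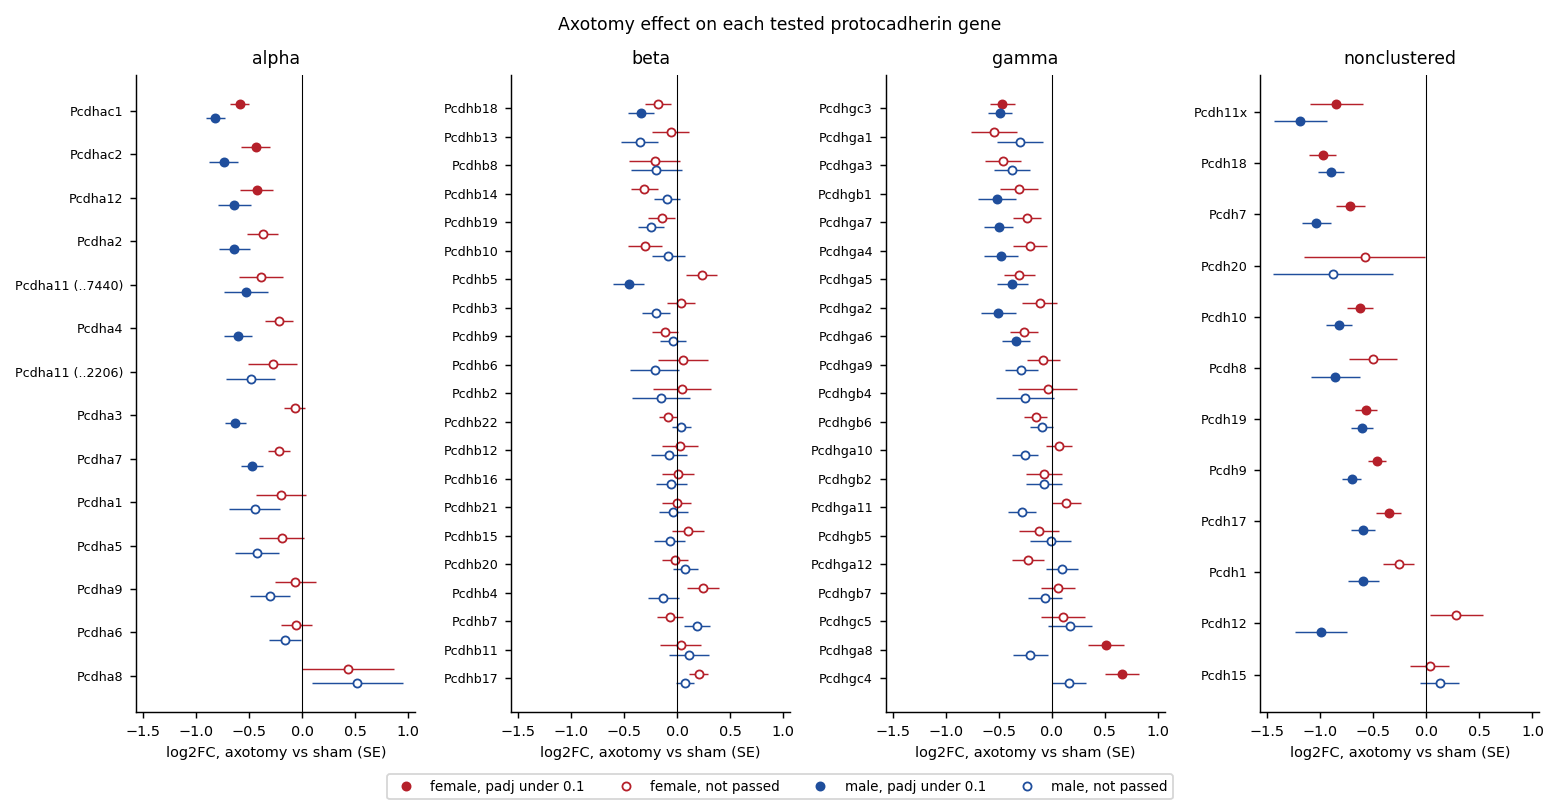
The log2FC of axotomy over sham (horizontal axis) with its SE for each of the 68 tested members, in females (red) and males (blue), in 4 panels by group and ordered within each by the mean over both sexes; filled points passed padj under 0.1. Filled points lie left of 0 except Pcdhga8 and Pcdhgc4 in females, and most beta genes lie within 0.3 of 0.

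The delta protocadherins fell as a group. Of the 9 delta1 and delta2 genes, 7 fell in females, 9 fell in males and 9 fell over both sexes. Of all tested genes, 9.74%, 20.1% and 22.6% fell in these comparisons. The median of the 12 nonclustered genes was −0.54 in females and −0.84 in males. The delta2 genes that fell in both sexes are shown first by the DNA around their annotated starts, beside that of the delta1 gene Pcdh9. Each window is 300 bases from RefSeq (GRCm38.p6), 250 before and 50 after the gene's start, on the gene's own strand, and its capitals mark matches, on either strand, to the GC box GGGCGG and the CCAAT box CCAAT. The window of the delta1 gene Pcdh7, which also fell in both sexes, holds neither match and is not printed.

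Pcdh10 (chr3:45378148-45378447, plus strand): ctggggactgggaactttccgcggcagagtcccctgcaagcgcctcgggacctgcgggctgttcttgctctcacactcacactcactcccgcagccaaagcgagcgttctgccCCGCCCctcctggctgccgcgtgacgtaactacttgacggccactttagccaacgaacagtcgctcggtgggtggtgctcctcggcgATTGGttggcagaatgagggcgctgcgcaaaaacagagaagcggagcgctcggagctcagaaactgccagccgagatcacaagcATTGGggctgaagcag
Pcdh17 (chr14:84443313-84443612, plus strand): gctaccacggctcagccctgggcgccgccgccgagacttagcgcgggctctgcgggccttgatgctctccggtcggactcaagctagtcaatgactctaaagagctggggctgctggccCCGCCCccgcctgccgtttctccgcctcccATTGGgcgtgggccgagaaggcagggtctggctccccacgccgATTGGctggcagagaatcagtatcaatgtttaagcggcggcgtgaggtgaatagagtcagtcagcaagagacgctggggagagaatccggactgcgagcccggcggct
Pcdh18 (chr3:49757267-49757566, minus strand): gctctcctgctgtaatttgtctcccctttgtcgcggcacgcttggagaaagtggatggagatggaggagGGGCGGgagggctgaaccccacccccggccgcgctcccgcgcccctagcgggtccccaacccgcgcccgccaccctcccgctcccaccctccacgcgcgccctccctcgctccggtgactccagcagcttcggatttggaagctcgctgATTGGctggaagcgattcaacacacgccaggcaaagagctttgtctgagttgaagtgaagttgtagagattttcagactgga
Pcdh19 (chrX:133688944-133689243, minus strand): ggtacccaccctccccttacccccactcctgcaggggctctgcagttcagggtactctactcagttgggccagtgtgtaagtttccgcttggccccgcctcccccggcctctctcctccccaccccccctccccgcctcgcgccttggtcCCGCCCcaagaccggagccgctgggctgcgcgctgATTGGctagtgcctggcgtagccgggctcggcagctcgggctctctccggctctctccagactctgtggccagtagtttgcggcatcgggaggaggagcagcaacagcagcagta
Pcdh9 (chr14:93890630-93890929, minus strand): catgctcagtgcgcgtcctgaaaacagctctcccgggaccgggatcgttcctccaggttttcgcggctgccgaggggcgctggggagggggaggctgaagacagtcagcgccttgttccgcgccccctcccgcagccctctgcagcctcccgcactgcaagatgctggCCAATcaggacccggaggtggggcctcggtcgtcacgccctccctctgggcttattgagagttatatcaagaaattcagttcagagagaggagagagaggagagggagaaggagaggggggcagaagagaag

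Windows were examined for 9 nonclustered members (Pcdh7, Pcdh8, Pcdh9, Pcdh10, Pcdh15, Pcdh17, Pcdh18, Pcdh19 and Pcdh20). Chromosome 18 was left out, and a single window per gene was kept, the one of highest start coordinate. That is the most downstream listed start for plus-strand genes and the most upstream for minus-strand genes. The windows behind the shares of all windows were not reduced to a single one per gene. Pcdh11x, though X-linked, had no window. CCAAT or its complement stood in 8 of the 9, against 37.4% of all 32851 windows of the same length, and Pcdh7 was the one without it. GGGCGG stood in 4 of the 9, the delta2 genes printed above, against 35.7% of all windows. The TATA box TATAAA was found in Pcdh8 and Pcdh15, against 13.6% of all windows. The windows were rich in G and C, with a median of 62.3% and 18 CpG pairs, against 52.7% and 7 over all windows. The letters of the AP-1 site TGACTCA, the CRE TGACGTCA and the E-box CACGTG were in none of the 9 windows and in 5.2%, 1.8% and 7.2% of all windows. Pcdh15 and Pcdh20, which passed in no comparison, hold CCAAT as well, and a match describes the letters alone.

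Pcdh7, a delta1 gene also known as BH-protocadherin, was at 85.9 and 96.4 CPM in female sham and 100.3 and 99.3 CPM in male sham, and at 48.4, 53.8 and 63.8 CPM in female axotomy and 43.1, 58.0 and 44.4 CPM in male axotomy. The groups did not overlap, and sham libraries of both sexes were close to each other. The log2FC was −0.72 ± 0.14 in females (padj = 0.00892) and −1.04 ± 0.14 in males (padj = 0.000896). Its share of all nonclustered TPM was 15.9% to 16.2% in sham and 12.5% to 13.9% after axotomy.

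Pcdh9 was at 90.7 and 98.9 CPM in female sham, 95.7 and 94.2 in male sham, 64.4, 67.3 and 74.0 in female axotomy, and 54.7, 64.4 and 55.3 in male axotomy. No axotomy library reached a sham library, with a log2FC of −0.47 ± 0.09 in females (padj = 0.00881) and −0.71 ± 0.09 in males (padj = 0.000773). Pcdh11x, the X-linked delta1 gene, was a low gene at 5.1 and 7.52 CPM in female sham, 8.29 and 6.65 in male sham, 2.77, 3.14 and 4.58 in female axotomy, and 2.5, 3.85 and 3.48 in male axotomy. It had the most negative log2FC of all members in males, −1.19 ± 0.25 (padj = 0.00538), and −0.85 ± 0.25 in females (padj = 0.0501), and its sham values spread more than those of Pcdh7 or Pcdh9. Pcdh1, abundant along with Pcdhac2, stood at 128.5 and 138.6 CPM in female sham and 157 and 162 in male sham, against 95.7, 109.6 and 128.6 in female axotomy and 100.0, 127 and 89.5 in male axotomy. It fell in males (log2FC −0.59 ± 0.14, padj = 0.0107), while in females the log2FC of −0.26 ± 0.15 did not pass (padj = 0.262). Female axotomy 3 was level with female sham 1.

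Among the delta2 genes, Pcdh18 had the deepest fall in females. It was at 15.5 and 15.7 CPM in female sham, 15.2 and 12.1 in male sham, 7.97, 8.46 and 7.29 in female axotomy, and 6.6, 7.4 and 7.97 in male axotomy, and every axotomy value was under every sham value. The log2FC was −0.98 ± 0.12 in females (padj = 0.00137) and −0.90 ± 0.12 in males (padj = 0.00102), nearly equal in both sexes. Pcdh19, the X-linked gene mutated in a form of epilepsy that mainly affects females, was at 12.3 and 12.5 CPM in female sham, 13.5 and 12.4 in male sham, 8.7, 8.45 and 7.89 in female axotomy, and 7.87, 8.19 and 9.38 in male axotomy. Its log2FC was −0.57 ± 0.10 (padj = 0.00747) and −0.61 ± 0.10 (padj = 0.00212), and its libraries spread little within groups.

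Pcdh10, or OL-protocadherin, binds the WAVE complex through its cytoplasmic part. It was at 55.4 and 66.6 CPM in female sham, 66.2 and 66.0 in male sham, 37.3, 38.6 and 42.4 in female axotomy, and 30.8, 41.1 and 39.8 in male axotomy, with a log2FC of −0.63 ± 0.12 (padj = 0.00934) and −0.83 ± 0.12 (padj = 0.00127). Pcdh17, which recruits the WAVE complex to contacts between axons, was at 44.9 and 51.5 CPM in female sham, 54.4 and 48.7 in male sham, 36.2, 38.1 and 38.6 in female axotomy, and 32.7, 39.8 and 29.5 in male axotomy. The fall of Pcdh17 was the shallowest of the delta2 genes in females, −0.36 ± 0.12 (padj = 0.069) and −0.60 ± 0.12 (padj = 0.0038). Pcdh8, also called arcadlin, was at 4.88 and 5.65 CPM in female sham, 4.21 and 5.97 in male sham, 2.75, 4.09 and 4.28 in female axotomy, and 2.74, 3.38 and 2.29 in male axotomy. It fell in males (log2FC −0.86 ± 0.23, padj = 0.0156), and the female log2FC of −0.51 ± 0.23 did not pass (padj = 0.168).

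Without female sham 2, the female calls of Pcdh7, Pcdh9, Pcdh10 and Pcdh11x were lost, with padj of 0.111, 0.117, 0.135 and 0.397. That of Pcdh11x was lost as well without female axotomy 1 or 2, and the female call of Pcdh17 was lost in 6 of 18 alternatives, among them the fit with the replicate number as a block (padj = 0.104). The male call of Pcdh8 was lost without male sham 2 (padj = 0.177). The 7 female calls among nonclustered genes were 2 without female sham 2. The calls of the 9 delta genes over both sexes held in all 17 alternatives each.

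**Figure D3:**
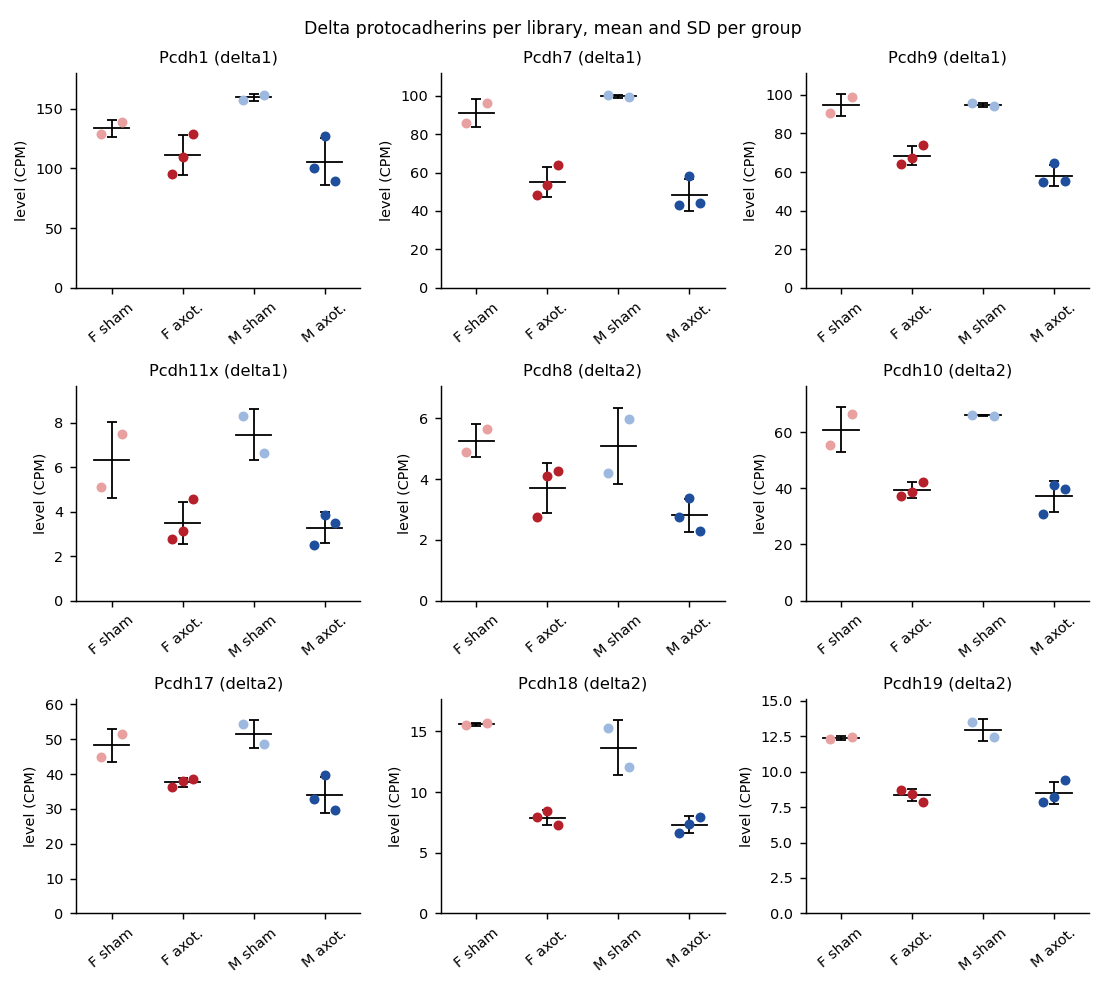
Level in CPM (vertical axes, from 0, each on its own scale) of the 9 delta protocadherins in each library; F and M are female and male, points are libraries, and lines and bars are the mean and SD (n = 2 for sham, n = 3 for axotomy). For Pcdh7, Pcdh9, Pcdh11x, Pcdh10, Pcdh17, Pcdh18 and Pcdh19 all axotomy points lie under all sham points, while Pcdh1 and Pcdh8 overlap.

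None of the 3 remaining nonclustered genes passed in females or over both sexes. Pcdh12, an endothelial protocadherin, was at 1.28 and 1.1 CPM in female sham and 1.25, 1.26 and 1.85 in female axotomy (log2FC 0.28 ± 0.25, padj = 0.493), and at 1.64 and 1.74 in male sham and 0.802, 1.06 and 0.677 in male axotomy (log2FC −0.99 ± 0.24, padj = 0.0109). The difference between these 2 effects was −1.28 ± 0.35 and did not pass (padj = 0.258). The 7 endothelial markers summed to 82.0 to 106 CPM in sham and 80.9 to 91.7 CPM after axotomy. Of these, 3 fell in males and none in females, beside 20.1% and 9.74% of all tested genes. Pcdh15, a component of the tip link of hair cells, was between 2.52 and 4.09 CPM in every library, with a log2FC of 0.03 ± 0.18 (padj = 0.936) and 0.12 ± 0.19 (padj = 0.645). Pcdh20 was at 0.0654 to 0.51 CPM, and a change was not detectable at this depth (log2FC −0.58 ± 0.57 and −0.88 ± 0.57, padj = 0.539 and 0.259).

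In the alpha cluster 3 of 14 genes fell in females, 8 fell in males and 9 fell over both sexes, beside 9.74%, 20.1% and 22.6% of all tested genes. The female count was 1 without female sham 1 or 2 or female axotomy 1 or 2. No alpha gene rose by this test; the single gene with a positive log2FC, Pcdha8, had no unadjusted p under 0.05 in any of the 3. The median log2FC was −0.22 in females and −0.51 in males. The C-type genes Pcdhac1 and Pcdhac2 fell in both sexes. Pcdhac1 was at 66.9 and 68.1 CPM in female sham, 69.0 and 69.9 in male sham, 43.2, 44.6 and 46.5 in female axotomy, and 34.9, 44.2 and 38.7 in male axotomy. It had the smallest padj of the family over both sexes (4.28e-05), with a log2FC of −0.59 ± 0.09 in females (padj = 0.00302) and −0.82 ± 0.09 in males (padj = 0.000457), and its calls held in every alternative. Pcdhac1 also made up less of the alpha cluster after axotomy, 16.3% to 18.2% of its TPM against 18.8% to 19.6% in sham.

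Pcdhac2, the alpha gene used throughout serotonergic neurons, was at 151 and 158 CPM in female sham, 166 and 164 in male sham, 107, 112 and 123 in female axotomy, and 83.2, 123 and 89.9 in male axotomy. All axotomy libraries were under all sham libraries. Its log2FC was −0.44 ± 0.14 in females (padj = 0.0598) and −0.74 ± 0.14 in males (padj = 0.0031), and the female call was lost in 5 of 18 alternatives. Of the stochastically chosen alpha genes, Pcdha12 fell in females (−0.43 ± 0.16, padj = 0.0952) and in males (−0.64 ± 0.16, padj = 0.0101), the former lost in 7 of 18 alternatives, the replicate block among them (padj = 0.11), and the latter without male sham 2 (padj = 0.153). Its 4 sham values were 17.3 to 23.8 CPM and its 6 axotomy values 11.7 to 16.3 CPM.

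Several other alpha genes passed in males and not in females. Pcdha2 was at 9.59 to 11.8 CPM in the sham libraries, 8.62 to 8.79 CPM in female axotomy and 5.54 to 8.06 CPM in male axotomy, with a male log2FC of −0.64 ± 0.15 (padj = 0.00783) that was lost without male sham 1 (padj = 0.102). Pcdha7 was at 10.8 to 12.8 CPM in sham and 8.17 to 10.4 CPM after axotomy, with a male log2FC of −0.47 ± 0.10 (padj = 0.00681). In both of these genes the sham and axotomy libraries did not overlap. Pcdha4 (−0.61 ± 0.13 in males, padj = 0.00566) and the gene Pcdha11 with the identifier ENSMUSG00000007440 (−0.53 ± 0.21 in males, padj = 0.0734) fell as well, the latter lost in 6 of 18 alternatives, the replicate block (padj = 0.109) and no filter (padj = 0.124) among them. The symbol Pcdha11 is carried by a second gene identifier, ENSMUSG00000102206, which passed over both sexes alone (−0.38 ± 0.16, padj = 0.0847) and lost that call in 9 of 17 alternatives.

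Of the alpha genes, Pcdha3 had the largest estimated difference between the male and the female axotomy effect. It was at 12.3 and 13.9 CPM in female sham and 11.5, 12.9 and 13.0 CPM in female axotomy (log2FC −0.07 ± 0.10, padj = 0.681), and at 14.7 and 12.9 CPM in male sham and 8.93, 8.86 and 8.94 CPM in male axotomy (log2FC −0.63 ± 0.10, padj = 0.00163). Every male axotomy library was under all 7 others. The difference between the male and the female effect, −0.56 ± 0.14, did not pass (padj = 0.236). Between the sexes after axotomy Pcdha3 was lower in males by a log2 difference of −0.48 ± 0.09 (padj = 0.0588), where 0.355% of all tested genes were lower and 1.16% higher in males, 1.52% in all. This call was lost in 7 of 18 alternatives, with the compared libraries alone (padj = 0.171) and on leaving out any of 6 single libraries (padj up to 0.219, without female axotomy 2).

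The alpha genes share much of their sequence. In the Gencode M21 transcripts, 48.4% to 70.2% of the 31-base words of each alpha gene's longest coding transcript also occur in other alpha genes, and 41.7% to 67.8% of those of each gamma gene occur in other gamma genes. The share that occurs in any other gene was 0% to 22.5% for beta and at most 0.39% for nonclustered genes. The counts of single alpha and gamma genes therefore depend on how Salmon divided the shared reads. For Pcdha4 a further 36.3% of the words occur in genes outside the family alone. In all, 97.8% of the words of Pcdha4 occur in some other gene, so its counts rest almost wholly on shared reads. The nonclustered genes hold nearly unshared reads.

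In the gamma cluster 1 gene fell and 2 rose in females, 7 fell in males, and 9 fell and 1 rose over both sexes, of 21 tested, beside 9.74% (fell) and 10.4% (rose) of all tested genes in females, 20.1% (fell) in males, and 22.6% and 23.9% over both sexes. The female counts moved with the setting, to 3 fallers by DESeq2 or without female axotomy 3, 4 with protein-coding transcripts only, 2 with the replicate block and 0 without female sham 2, and to 0 risers without female sham 1 or 2. The male count went from 7 to 2 on leaving out male sham 2, and to 4 on leaving out male sham 1 or male axotomy 3. Pcdhgc3, the most abundant gamma gene, was at 55.8 and 61.7 CPM in female sham, 67.3 and 67.3 in male sham, 38.6, 40.4 and 48.7 in female axotomy, and 42.3, 54.0 and 47.8 in male axotomy. It was the only gamma gene whose axotomy libraries all lay below the sham libraries, with a log2FC of −0.47 ± 0.12 (padj = 0.027) and −0.49 ± 0.12 (padj = 0.0094), the former lost without female sham 2 (padj = 0.226).

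Pcdhgc4, whose protein is required for survival of cortical interneurons, rose in females when all its transcripts were summed. It was at 21.5 and 23.9 CPM in female sham and 24.2 and 25.3 CPM in male sham, and at 41.7, 39.5 and 26.8 CPM in female axotomy and 30, 25.3 and 27.6 CPM in male axotomy. Female axotomy 3 was close to the male libraries and the other 2 were above all others. The log2FC was 0.66 ± 0.16 in females (padj = 0.0251), lost without female sham 1 (padj = 0.165) or 2 (padj = 0.129), 0.16 ± 0.16 in males (padj = 0.478), and 0.41 ± 0.11 over both sexes (padj = 0.0151).

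This rise lay in 1 transcript that holds hardly any sequence of Pcdhgc4 alone. Pcdhgc4-203, of 2272 bases, shares 93.3% of its 31-base words with other gamma genes, and Pcdhgc4-201, of 5024 bases, which carries the full variable exon, shares 41.9%. Pcdhgc4-203 was at 12.6 and 14.2 TPM in female sham, 13.96 and 14.8 in male sham, 25.2, 24.5 and 16.4 in female axotomy, and 17.1, 15.2 and 15.3 in male axotomy. Pcdhgc4-201 was at 2.36 and 2.66 TPM in female sham, 3.22 and 2.96 in male sham, 0.876, 1.18 and 1.61 in female axotomy, and 0.681, 1.64 and 1.05 in male axotomy. The former was higher and the latter lower in all 6 axotomy libraries than in all 4 sham libraries. An alternative added after these values were seen left out 2 of 87 clustered transcripts, Pcdhgc4-203 and Pcdha11-204. Over 90% of the words of each are shared within their own cluster. Sharing with genes outside the cluster was not counted, so Pcdha4 was kept. In this alternative Pcdhgc4 fell, with a log2FC of −0.83 ± 0.23 in females (padj = 0.0392) and −1.06 ± 0.23 in males (padj = 0.00575). The direction of Pcdhgc4 thus depends on whether reads assigned to the short transcript are counted for it.

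**Figure D4:**
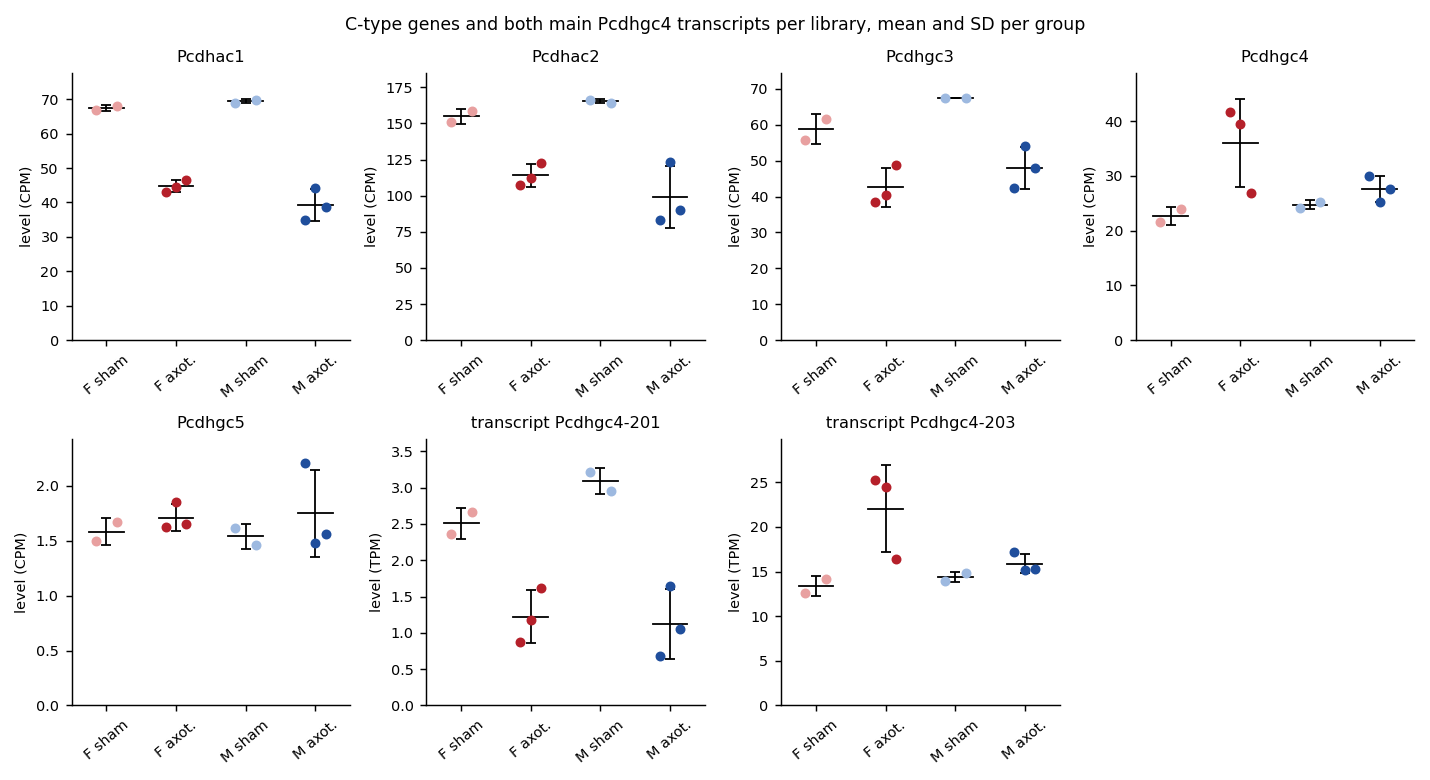
Level of the 5 C-type genes in CPM and of the transcripts Pcdhgc4-201 and Pcdhgc4-203 in TPM (vertical axes, from 0, each on its own scale) in each library; F and M are female and male, points are libraries, and lines and bars are the mean and SD (n = 2 for sham, n = 3 for axotomy). Pcdhac1, Pcdhac2, Pcdhgc3 and Pcdhgc4-201 are lower in all axotomy than in all sham libraries, and Pcdhgc4-203 is higher.

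Pcdhgc5 was low, at 1.46 to 1.67 CPM in sham and 1.48 to 2.21 CPM after axotomy, and did not pass (log2FC 0.11 ± 0.21 and 0.18 ± 0.21, padj = 0.773 and 0.55). Its transcript Pcdhgc5-202, which retains an intron, made up 55.6% of its TPM in sham and 76.7% after axotomy. This transcript was at 0.227 to 0.309 TPM in sham and 0.323 to 0.403 TPM after axotomy. The coding transcript Pcdhgc5-201 was at 0.189 to 0.238 TPM in sham and 0.0624 to 0.2 TPM after axotomy, with overlap. Single transcripts were not tested, and the summed level does not describe the coding transcript. Of the 12 gamma A genes, 7 fell over both sexes, 5 fell in males and none fell in females, where 3 had an unadjusted p under 0.05 in either direction and 1, Pcdhga8, rose. Of all tested genes, 22.6%, 20.1% and 9.74% fell in these comparisons, and 29.1% had an unadjusted p under 0.05 in females. Pcdhga3 had a log2FC over both sexes of −0.42 ± 0.12 (padj = 0.0189), at 19.0 to 21.5 CPM in sham and 12.1 to 19.6 CPM after axotomy. In males, Pcdhga7 (−0.50 ± 0.13, padj = 0.0153), Pcdhga2 (−0.50 ± 0.17, padj = 0.0373), Pcdhga4 (−0.48 ± 0.16, padj = 0.0406), Pcdhga6 (−0.34 ± 0.13, padj = 0.0657) and Pcdhga5 (−0.37 ± 0.15, padj = 0.0746) fell. Pcdhga1 passed over both sexes alone (−0.42 ± 0.15, padj = 0.049). Each of these genes other than Pcdhga3 lost at least 1 call when 1 library was left out. Of the 6 gamma B genes only Pcdhgb1 fell (−0.52 ± 0.18 in males, padj = 0.0444), and it lost that call without male sham 1 or male axotomy 3. Pcdhga8, named after its values were seen, was at 4.65 and 4.92 CPM in female sham and 5.48, 6.9 and 8.04 CPM in female axotomy (log2FC 0.51 ± 0.17, padj = 0.0732), and this call was lost in 7 of 18 alternatives, the replicate block among them (padj = 0.106).

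The beta cluster, whose genes share little sequence, showed few changes. None of the 21 tested beta genes passed in females by edgeR's test (lowest padj 0.134, 2 genes with an unadjusted p under 0.05), while 1 passed with the replicate block, without the length offset, with protein-coding transcripts only or without female axotomy 3, and the median log2FC was −0.01 in females and −0.08 in males. The most abundant, Pcdhb9, was at 10.3 and 11.5 CPM in female sham, 10.3 and 11.7 in male sham, 9.39, 10.6 and 10.3 in female axotomy, and 9.55, 12.1 and 10.3 in male axotomy. Its groups overlapped, with a log2FC of −0.11 ± 0.12 (padj = 0.587) and −0.04 ± 0.12 (padj = 0.824). Pcdhb22 overlapped likewise, at 13.2 to 14.7 CPM in sham and 13.2 to 15.3 CPM after axotomy.

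In males 2 of the 21 tested beta genes fell, beside 20.1% of all tested genes. Pcdhb18 was at 4.61 to 5.76 CPM in sham and 4.12 to 4.6 CPM after axotomy, without overlap (−0.34 ± 0.12 in males, padj = 0.0529), and this call was lost in 5 of 18 alternatives, with no filter (padj = 0.18), with the compared libraries alone (padj = 0.133) and without male sham 1 (padj = 0.307), male sham 2 or male axotomy 1. Pcdhb5 was at 4.1 and 4.1 CPM in female sham, 4.32 and 4.16 in male sham, 5.17, 4.31 and 4.97 in female axotomy, and 2.69, 3.44 and 3.13 in male axotomy, with a male log2FC of −0.46 ± 0.14 (padj = 0.0317) and a female log2FC of 0.23 ± 0.14 (padj = 0.318). Pcdhb5 was lower in males than in females after axotomy by a log2 difference of −0.64 ± 0.13 (padj = 0.0707), a call lost in 10 of 18 alternatives (padj up to 0.225), and its male call was lost without male sham 1 or 2 (padj = 0.16 and 0.117). Pcdhb17 rose over both sexes by a log2FC of 0.14 ± 0.06 (padj = 0.0963), from 10.3 to 10.9 CPM in sham to 10.6 to 11.9 CPM after axotomy, and this small change was lost in 14 of 17 alternatives. Pcdhb14 fell over both sexes by −0.20 ± 0.09 (padj = 0.0964) and lost the call in 10. Pcdhb5 and Pcdhb14 were named after their values were seen.

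No member differed between the sexes in its response to axotomy in edgeR's test (lowest padj 0.236), where 0.0192% of all tested genes did, and 6 members had an unadjusted p under 0.05, against 11.4% of all tested genes. DESeq2 called 3 members (Pcdha3, Pcdh12 and Pcdhb5), all with the more negative effect in males. Without male axotomy 2 edgeR called 8, again all more negative in males. The shares of all tested genes called by DESeq2 or without male axotomy 2 were not computed, so these counts have no baseline. In sham no member differed between males and females (1 with an unadjusted p under 0.05, 0 by DESeq2), against 0.0432% of all tested genes (0.0288% higher and 0.0144% lower in males). After axotomy Pcdha3 and Pcdhb5 differed, both lower in males, where 0.355% of all tested genes were lower and 1.16% higher. Without male axotomy 2, 14 members differed after axotomy, again without a computed share of all genes. At an unadjusted p under 0.05 were 14 members in the comparison of all libraries, against 15.4% of all tested genes. Male axotomy 2 had the highest summed protocadherin level of the male axotomy libraries, 974 CPM against 800 and 805 CPM. It also had the lowest fibroblast marker sum of these libraries. Erythrocyte markers (4 genes) summed to 1042 CPM in male axotomy 2 and to 2257 and 3577 CPM in male axotomy 1 and 3. They summed to 552 to 619 CPM in male sham, 759 to 1137 CPM in female sham and 471 to 1531 CPM in female axotomy. All 4 rose in males and none passed in females, beside 21.8% and 10.4% of all tested genes that rose. The part of tissue composition in these sex differences was not tested.

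Genes that act with protocadherins were taken from lists. Among 22 regulators of promoter choice and chromatin, such as CTCF and cohesin, which loop enhancers to the chosen variable exon, 7 rose and 4 fell over both sexes (median 0.10), beside 23.9% and 22.6% of all tested genes, which is close to these shares. Tet3, a 5-methylcytosine dioxygenase, rose by 0.59 ± 0.07 (padj = 0.000193) and the cohesin subunit gene Stag1 by 0.40 ± 0.07 (padj = 0.00131), while Wiz (−0.36 ± 0.06, padj = 0.000979) and the de novo DNA methyltransferase Dnmt3a (−0.37 ± 0.07, padj = 0.00164) fell. Of 9 genes for shedding and gamma-secretase cleavage, which release the protocadherin ectodomain and cytoplasmic part, 2 rose and 2 fell over both sexes (median 0.02). These counts are close to the 23.9% and 22.6% of all tested genes. Psenen (0.38 ± 0.07, padj = 0.00157) and Adam10 (0.20 ± 0.08, padj = 0.0748) rose, and Psen2 (−0.33 ± 0.06, padj = 0.00178) and Ncstn (−0.17 ± 0.06, padj = 0.0441) fell. Adam10 passed in males (0.39 ± 0.12, padj = 0.0284) and not in females (0.02 ± 0.12, padj = 0.926). Ncstn likewise passed in males (−0.21 ± 0.08, padj = 0.0747) and not in females (−0.13 ± 0.09, padj = 0.356).

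Of 12 cytoplasmic kinases and signaling partners 7 rose and 1 fell over both sexes (median 0.16), beside 23.9% and 22.6% of all tested genes. Ptk2, the focal adhesion kinase that protocadherin constant domains restrain, rose by 0.53 ± 0.07 (padj = 0.000401) and Marcks, an actin-linked substrate of protein kinase C, by 0.58 ± 0.08 (padj = 0.000336), and Phlpp1 fell by 0.47 on the log2 scale (padj = 0.00298). In the WAVE complex, which promotes the assembly of branched actin and binds delta2 protocadherins, 4 of 11 rose and 3 fell, likewise beside 23.9% and 22.6% of all tested genes. Abi1 (0.22 ± 0.05, padj = 0.00477) and Brk1 (0.21 ± 0.05, padj = 0.00606) rose, and the neuronal Wasf3 (−0.64 ± 0.08, padj = 0.000189) and Abi2 (−0.32 ± 0.07, padj = 0.0032) fell.

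Other cadherins and the listed membrane and stereocilia partners fell in larger shares than the 22.6% of all tested genes that fell over both sexes. Of 9 membrane partners 5 fell and none rose (median −0.32), among them Nlgn1, a postsynaptic adhesion protein that gamma protocadherins bind (−0.75 ± 0.12, padj = 0.000867), and Cdh11 (−0.33 ± 0.09, padj = 0.0118). Of 8 tested partners of Pcdh15 in the tip link and stereocilia 5 fell (median −0.38), with Myo7a at −0.49 ± 0.07 (padj = 0.000418) and Whrn at −1.22 ± 0.18 (padj = 0.000654), while Pcdh15 itself did not pass. Of 14 other large cadherins 7 fell, with Clstn1 at −0.50 ± 0.07 (padj = 0.000313) and Clstn2 at −0.68 ± 0.13 (padj = 0.00217). Of 17 classical cadherins 12 fell and 1 rose over both sexes (median −0.46), beside 22.6% and 23.9% of all tested genes. Cdh12 was at 12.0 to 12.3 CPM in sham and fell by 1.36 on the log2 scale (padj = 0.000336), and Cdh13 fell by 0.56 (padj = 0.000239). The one that rose was Cdh19, a cadherin of Schwann cell precursors (0.29 ± 0.09, padj = 0.0228), whose male log2FC was 0.57 ± 0.13 (padj = 0.007) and female log2FC 0.02 ± 0.12 (padj = 0.94). All 7 myelinating Schwann cell markers rose in males and none passed in females (median log2FC 0.66 and −0.18). Of all tested genes, 21.8% rose in males and 10.4% in females.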

How the data were processed

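RNA of L4 and L5 DRG was pooled from 2 mice per library, and 10 libraries were used. The authors trimmed reads with Trimmomatic 0.39 and assigned them to Gencode M27 transcripts (GRCm39) with Salmon 1.3.0. The strand setting of that run was not given in the sources used here. Estimated counts per transcript, as deposited by the authors, are not normalized, and the deposited TPM values of the same Salmon run were used for levels between genes. The effective transcript lengths, which the authors deposited with them and which form a never-negative signal column, served as the offset.

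Counts were summed per gene, rounded and tested in R 4.3.3 with edgeR 4.0.16 (TMM, average effective transcript length as an offset, filterByExpr, robust quasi-likelihood F test, 4 group means in 1 fit). Adjustment was by Benjamini-Hochberg over 20836 genes, with a threshold of padj under 0.1. CPM uses the same normalization. The SE comes from the F value. Groups and replicate numbers come from the sample labels, and p values measure the spread between pools of mice.

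Depth was 55258476 to 90111671 estimated counts per library. In counting error alone, 3 counts equal 0.0333 to 0.0543 CPM. Over 13 pairs of equal replicate number, residual correlations were −0.124 to 0.27, so no pairing was used. Simulated data with known changes served to check the fit.

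The members and the lists were chosen with earlier results of these data known. Named were all nonclustered genes, the 20 clustered genes of smallest p over both sexes among 24 called in any of 3 comparisons, the 3 most abundant genes per cluster, the C-type genes, and per list the 2 genes of smallest p in each direction. Alternatives were RLE size factors, no filter, DESeq2 1.42.0, no length offset, protein-coding transcripts alone, the compared libraries alone, the replicate block, leaving out each library, and, added after the data were seen, leaving out mostly shared transcripts. Sequence sharing was measured on Gencode M21 transcripts, and promoter windows came from RefSeq (GRCm38.p6). No GRCm39 coordinates were used here.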

Additional observations from a re-analysis of the deposited data

How the results depend on the processing

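Of 1283 values of 73 called gene results under the alternatives, 1146 kept direction and call, 135 kept direction and missed the threshold, and 2 turned direction. The 2 were those of Pcdhgc4 without mostly shared transcripts, at a log2FC of −0.83 in females and −0.95 over both sexes. That setting also gave 1 riser in females and 1 over both sexes, and a gamma ratio of axotomy to sham of 0.841 in females. In 37 results the call held in every alternative.

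The members that rose over both sexes numbered 1 under RLE size factors, no filter, DESeq2 and no length offset. On summed TPM, the ratio was 0.709 for alpha in females, 0.907 and 0.833 for beta in females and males, and 0.74 for gamma in males. A sex difference of the axotomy effect was called for 3 members by DESeq2, and a difference between the sexes after axotomy for 4 without a filter, 6 by DESeq2, 4 without the length offset and 0 with the compared libraries alone, a setting that gives no value for both sexes together or for the interaction.

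With each library left out, 0 to 2 members rose and 3 to 13 fell in females (3 without female sham 2), 0 rose and 17 to 32 fell in males (17 without male sham 2), and 1 to 3 rose and 22 to 33 fell over both sexes. The effect differed between the sexes for 0 to 8 members, and levels for 0 in sham and 0 to 14 after axotomy, with 8 and 14 without male axotomy 2. With the replicate number as a block, 1 rose and 11 fell in females, 27 fell in males, 1 rose and 28 fell over both sexes, and 3 differed between the sexes after axotomy. The cause of these shifts was not tested, and the shares of all tested genes called under each alternative were not computed. A sham group of 2 libraries limits the female and male calls, and low genes such as Pcdh20 are limited by depth.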
